A study of Mus musculus with 4 samples.

Results

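Src-family tyrosine kinases and Csk, the kinase that restrains them, were followed in the visual cortex of mice that had lost 1 eye. The 6 genes considered were Src, Fyn, Yes1, Lyn, Lck and Csk, and their probe sets were chosen by gene symbol. A probe set, a group of short oligonucleotides that reads 1 transcript, was taken where the array's annotation gave it exactly 1 of these symbols. This gave 5 probe sets for 4 genes, out of 8251 genes that had a probe set naming them alone: 1 each for Src, Fyn and Yes1, and 2 for Csk. Lyn and Lck, family members best known from blood cells, had no such probe set and were not analysed here. In the mouse genome (GRCm38.p6, RefSeq) the Src gene lies at chr2:157423906-157471838, Fyn at chr10:39369743-39565381, Yes1 at chr5:32611171-32687066 and Csk at chr9:57626646-57653631. The family was selected on a measured value, the low Src signal in deprived cortex, which was known beforehand. The comparison between the sides is therefore a description for Src and gives no independent support to any statement about the family.

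Src, Fyn and Yes1 are membrane-anchored kinases that pass signals from receptors and adhesion molecules to the cytoskeleton and to other kinases. Csk phosphorylates a tyrosine in their tail, which folds the kinase into an inactive form, and tyrosine phosphatases remove that phosphate again. In neurons, Src and Fyn phosphorylate subunits of the NMDA receptor, a glutamate receptor that synaptic plasticity depends on, and in oligodendrocytes Fyn takes part in myelination.

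All tissue came from wild-type C57Bl6 mice, 5 in the protocol, that were kept in the dark from birth. One eye was removed at postnatal day 42, a light-dark cycle followed for 4 days, and the mice were killed at postnatal day 46. Dark rearing, late first light and enucleation were thus shared by every sample, and the groups differ in the side of the cortex. Deprived cortex lay opposite the removed eye and non-deprived cortex on the same side as it, with 2 arrays of pooled tissue per group. In mice most fibres of the optic nerve cross to the other side. The labels do not say which mice went into which pool, and p-values therefore measure no more than the spread between these 4 arrays.

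The 4 arrays had median signals from 189.9 to 245.7 in arbitrary units and mean correlations with the other arrays from 0.91 to 0.93. Deprived array 1 had the lowest of these correlations. The activity-induced genes Fos and Junb fell in deprived cortex, by 1.38 ± 0.18 and 1.26 ± 0.18 (SE, log2) at their brightest probe sets (limma, adjusted p = 0.020 and 0.030). As a check of the labelled tissue, the neuron marker Snap25 had signals from 15284 to 20865, and the T cell marker Cd3e from 34.8 to 66.1. Of 9 T cell markers, 7 were, like Cd3e, too dim for the comparison of sides. The other 2 were brighter, Cd3g at 16.6 to 381.4 and Cd4, named after its value was seen, at 185.1 to 707.9.

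Src was the member that stood apart. Its signal was 62.8 on deprived array 1 and 73.9 on deprived array 2, against 419.6 on non-deprived array 1 and 460.6 on non-deprived array 2. Both deprived values lay far below both non-deprived values, and arrays of the same side were close to each other. The group means were 68.4 ± 7.84 and 440.1 ± 29.0 (SD, n = 2 per group). Their ratio, non-deprived over deprived, was 6.44 on linear signals after scaling the arrays to a common 2% trimmed mean. Within each array's own ranking of 12422 non-control probe sets, Src stood at percentiles 17.9 and 31.5 in deprived and 65.4 and 68.4 in non-deprived cortex.

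**Figure D1:**
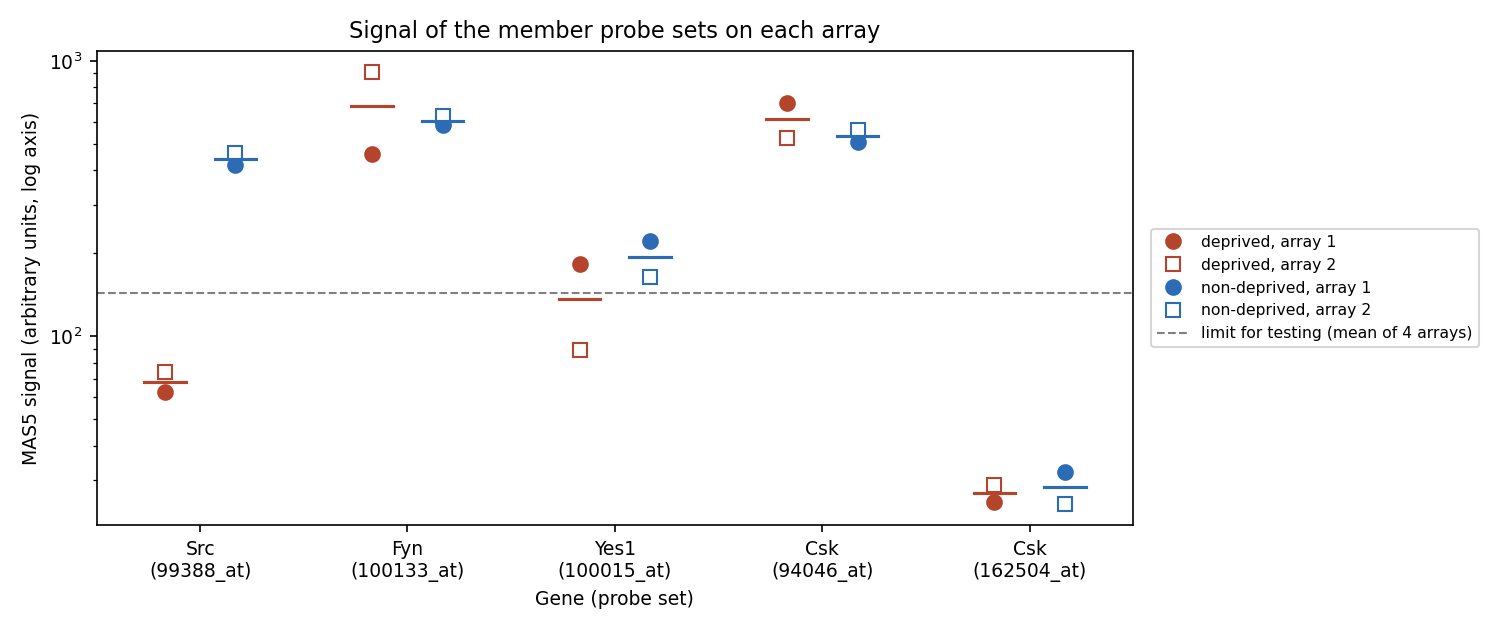
MAS5 signal (arbitrary units, log axis) of the 5 member probe sets on each of the 4 arrays, with a short line at the mean of each group and a dashed line at 142.9, the mean signal needed for testing. Src on the deprived arrays lies at 62.8 and 73.9, against 419.6 and 460.6 on the non-deprived arrays, while the groups of every other member overlap.

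For the comparison of sides, 60.6 was added to each signal before taking log2, which draws dim values together. On this scale Src differed by -1.96, -1.95, -2.08 and -1.84 over the 4 possible pairings of arrays across the sides. The 2 same-numbered pairs, which the submitters' wording implies came from the same animals, gave -1.96 and -1.95. The mean difference was -1.96 ± 0.44 (SE), 3.88-fold, and had rank 3 from the lowest among 7458 tested probe sets. Src was the 1 member at least 1.5-fold lower in all 4 pairs, as were 1.58% of tested probe sets. It was also the 1 member with both deprived arrays below both non-deprived arrays, as were 17.1% of tested probe sets. Because this contrast led to the choice of the family, nothing is read from these shares.

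**Figure D2:**
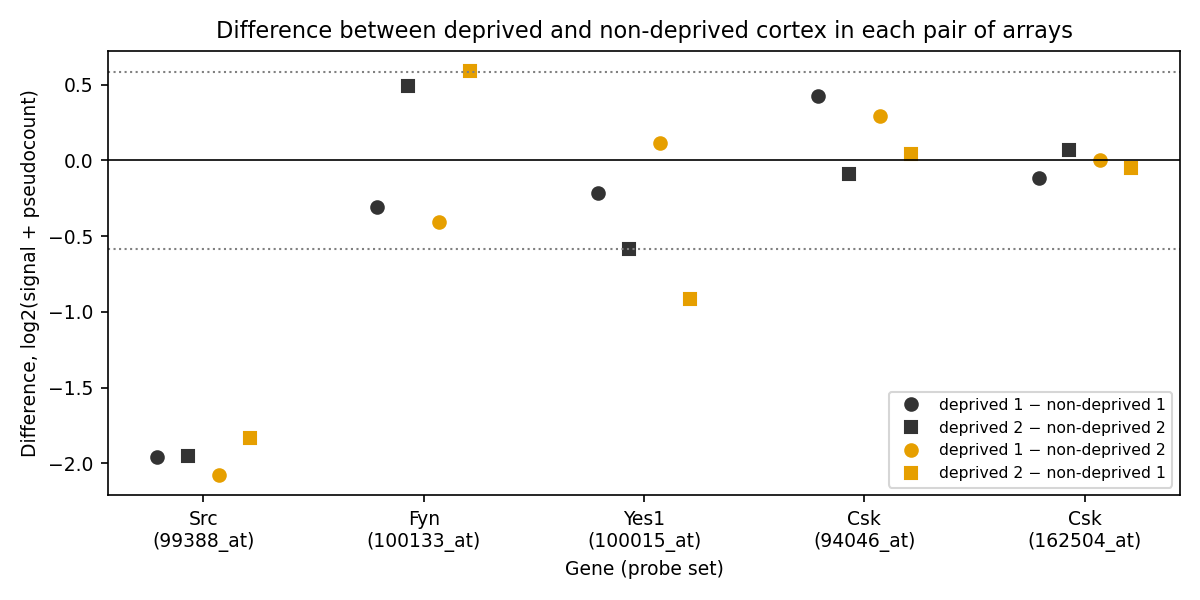
Difference between a deprived and a non-deprived array on the log2(signal + 60.6) scale for each member probe set, with black points for same-numbered pairs, orange points for crossed pairs and dotted lines at a 1.5-fold difference. The 4 Src differences lie between -2.08 and -1.84, while those of Fyn, Yes1 and both Csk probe sets fall on both sides of 0.

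In limma's fit across all 7458 tested probe sets, 0 of the 4 tested member probe sets passed an adjusted p of 0.05, where 0.107% of all tested probe sets did. At an unadjusted p under 0.05 there was 1 of the 4 tested members, Src, and 405 of all 7458 tested probe sets. The adjusted p of Src was 0.21. With the replicate number as a block, Src passed at 0.047, as did 0.536% of all probe sets. Without deprived array 1 or 2 it passed at 0.013 or 0.019, where 0.952% and 1.21% of all probe sets passed. Without non-deprived array 1 or 2 the adjusted p was 0.91 or 1.0, with SEs of 0.91 and 0.93, while the difference was -2.02 or -1.90. With an array left out, the Src difference thus stayed between -2.02 and -1.90, and its side of the threshold depended on which array that was.

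Src met the limit for testing, a mean signal over 4 arrays of 142.9, through the non-deprived arrays alone. Its deprived mean of 68.4 was under that limit, and a probe set that passes in this way has to differ between the groups. Detection calls were not used here, so whether Src transcript was detected on the deprived arrays is not known. A single probe set named Src, so no other probe set could be compared with it. In bulk tissue, fewer cells of a type and less RNA per cell cannot be told apart.

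Markers and signs of RNA quality were set beside Src on the same arrays. Each gene was taken by its brightest probe set. Of the 7 tested neuron markers 6 were lower and 1 higher in deprived cortex, with a median difference of -0.25 (log2) beside 0.0057 over all 5649 tested genes. Of these 7, 0 passed in limma with or without the block, and 1 reached an unadjusted p under 0.05. It was Nefl, a neurofilament gene named after its value was seen, at -0.68 ± 0.21 (SE, log2). Over all 5649 tested genes, 180 lower and 98 higher ones reached that unadjusted p in limma. Stmn2, also named after its values were seen, gave -0.22 ± 0.19 by its brightest probe set. Its other tested probe sets gave 0.13 ± 0.17 and 1.07 ± 0.71, so they disagree with it in sign. The summed signal of the 7 neuron markers was 35933 and 43790 on the deprived arrays and 42919 and 46628 on the non-deprived arrays, ranges that overlap. The actin controls, whose 5′ over 3′ signal ratio is a sign of RNA integrity, gave 0.544 and 0.463 on the deprived arrays and 0.638 and 0.632 on the non-deprived arrays. For Gapdh it was 0.745 and 0.689 against 0.875 and 1.07. Both ratios were lower on both deprived arrays, and their part in the Src result was not tested.

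Fyn, the relative of Src that acts at synapses and in oligodendrocytes, had no common direction. It read 459.8 on deprived array 1 and 907.9 on deprived array 2, against 582.7 on non-deprived array 1 and 628.7 on non-deprived array 2. The deprived arrays lay on either side of both non-deprived arrays, and their SD of 317 was larger than the difference between the means of 684 and 606. The fitted difference was 0.09 ± 0.29 (SE, log2; adjusted p = 0.999), with an unadjusted 95% interval from -0.54 to 0.72. It was 0.54 without deprived array 1 and -0.36 without deprived array 2, so that a single array set its sign. Whether Src and Fyn differ in their response was not tested.

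The tested myelin markers, set beside Fyn because of its role in oligodendrocytes, had a median difference of 0.27 over 6 genes, 5 higher and 1 lower. In limma 0 passed with or without the block. Beside 180 lower and 98 higher of all 5649 tested genes, 1 of the 6 had an unadjusted p under 0.05. This was Mobp, named after its value was seen, at 0.47 ± 0.17 (SE, log2) by its brightest probe set. Its other tested probe sets gave -0.14 ± 0.30, -0.59 ± 0.19 and -0.64 ± 0.26, so the probe sets of Mobp disagree in sign. Mbp, the myelin basic protein gene, gave 0.14 ± 0.18 and -0.003 ± 0.23 (SE, log2) at its probe sets. The signal summed over all 7 myelin markers with a probe set, the 1 too dim to test included, was 14689 on deprived array 1, 13497 on deprived array 2, and 12271 and 11169 on the arrays of the other side. Fyn itself was lowest on deprived array 1 and highest on deprived array 2, and how its signal relates to the myelin markers was not tested.

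Yes1, a close and widely expressed relative of Src, stood between percentiles 34.9 and 49.0 in the rankings of the 4 arrays. It read 182.7 on deprived array 1 and 89.3 on deprived array 2, against 221.6 on non-deprived array 1 and 164.5 on non-deprived array 2. Deprived array 1 lay between the non-deprived arrays and deprived array 2 below both, so the groups overlapped. The means were 136.0 ± 66.1 and 193.0 ± 40.4 (SD, n = 2 per group), and the fitted difference was -0.40 ± 0.52 (SE, log2; adjusted p = 0.999). Its interval ran from -1.55 to 0.75, wide enough to hold differences of either direction. With a mean signal of 164.5, at percentile 43.3, Yes1 was the member just above the limit for testing, and its deprived mean, like that of Src, was under it.

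Csk, the inhibitory kinase, was read by 2 probe sets. The brighter gave 701.5 on deprived array 1 and 524.6 on deprived array 2, against 508.2 on non-deprived array 1 and 562.3 on non-deprived array 2. Deprived array 1 was above both non-deprived arrays and deprived array 2 lay between them. The fitted difference was 0.17 ± 0.24 (SE, log2; adjusted p = 0.999), with an interval from -0.37 to 0.70, and it was -0.02 without deprived array 1.

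The other Csk probe set was the 1 member too dim to test. Its 4 signals lay between 24.6 and 32.0, with a mean of 27.6 at percentile 6.40. Fitted without a filter on dim probe sets it gave -0.02 ± 0.31, but at such signals a difference could hardly appear on the log2(signal + 60.6) scale. It therefore does not bear on the brighter Csk probe set.

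**Figure D3:**
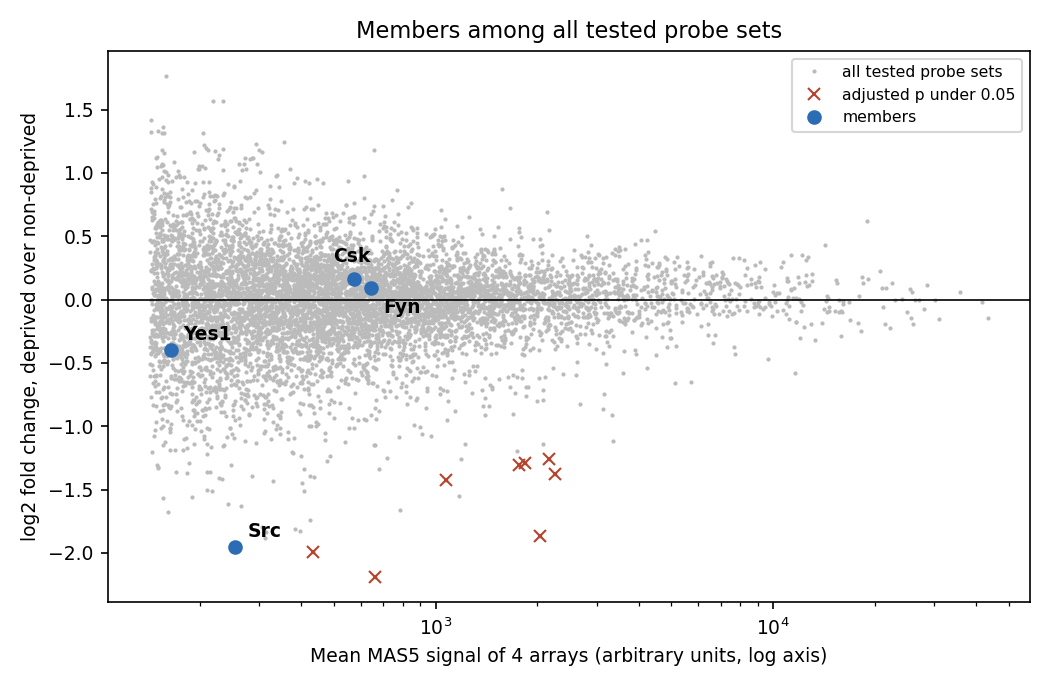
log2 fold change of deprived over non-deprived cortex against the mean signal of 4 arrays (arbitrary units, log axis) for 7458 tested probe sets in grey, with red crosses for the 8 at an adjusted p under 0.05 and blue points for the members. Src lies at -1.96, near the lower edge of the cloud at a mean signal of 254.2, and Fyn, Yes1 and Csk lie inside the cloud.

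The 5 genes whose pattern over the 4 arrays was nearest to that of Src were Rgs4, Syt1, Pspn, Tollip and Map2. Likeness was the root mean square difference of log2 values centred on their mean over the 4 arrays, which was from 0.11 to 0.17 for these genes and 1.00 at the median of the 6707 probe sets compared. Rgs4, a brake on G-protein signalling, read 125.8 and 153.8 on the deprived and 564 and 741 on the non-deprived arrays. Map2, a microtubule-associated protein of dendrites, read 85.0 and 119.6 on the deprived and 413.4 and 604.8 on the non-deprived arrays. All 5 had both deprived arrays below both non-deprived arrays, which a pattern like that of Src implies. With 4 arrays in 2 groups, likeness of this kind mostly reflects a large difference in the same direction. The deprived means of Rgs4, Pspn, Tollip and Map2 were 139.8, 138.5, 99.2 and 102.3, and that of Syt1 was 842.0. Like Src, the first 4 thus met the limit of 142.9 through the non-deprived arrays alone. Probe sets that pass in this way have to differ between the groups. Tollip, an adaptor of innate immune signalling, had a second tested probe set, with signals of 668.6 and 947.3 on the deprived and 857.8 and 704.2 on the non-deprived arrays, which did not share the pattern. Src, Rgs4, Syt1, Pspn and Map2 had no second probe set that could be examined in this way.

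The sequence before the start of Src is shown because Fos, Junb and Egr1 encode activity-induced factors with known motifs. Fos and Junb fell in deprived cortex, and Egr1 gave -0.65 ± 0.17 (SE, log2; adjusted p = 0.40). The 250 bases upstream of an annotated Src start, chr2:157424043-157424292 on the plus strand of GRCm38.p6 (RefSeq), lie inside the Src gene, whose annotated span on chromosome 2 begins at 157423906. Capitals mark matches to an EGR motif, GCGNGGGCG, and to a GC box, GGGCGG, which here adjoin each other.
Src promoter: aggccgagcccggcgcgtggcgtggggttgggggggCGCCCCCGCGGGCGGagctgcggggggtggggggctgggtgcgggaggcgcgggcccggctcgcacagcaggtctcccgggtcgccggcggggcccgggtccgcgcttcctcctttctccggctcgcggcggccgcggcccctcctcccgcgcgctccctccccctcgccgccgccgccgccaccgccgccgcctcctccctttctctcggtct
The EGR motif, searched on both strands, matched once, as it did at least once in 4.7% of 32851 promoter windows of this length. The GC box matched once, as it did in 32.7% of windows at least once. Both motifs consist almost wholly of G and C, which make up 82.8% of the Src window. These shares are over windows of any base composition, so they are no measure of how rare a match is in such a window. The AP-1 motif of Fos and Junb, TGANTCA, the cyclic AMP response element, TGACGTCA, and the CArG box of serum response factor had no match. In the windows of Fyn and Yes1 the GC box was the 1 of these 5 motifs that matched, and in the 2 windows of Csk none of the 5 did. A match is a run of letters and not a measured binding site.

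The genes that act on Src-family kinases or that they act on were described from lists of pathway genes, each gene by its brightest probe set. Over all 5649 tested genes, 180 lower and 98 higher ones had an unadjusted p under 0.05 in limma, the background for each list's count. Of 25 other cytoplasmic tyrosine kinases, 21 had a probe set of their own and 12 were bright enough to test. Of these, 7 were lower and 5 higher, with a median of -0.17 beside 0.0057 over all tested genes, and 0 passed in limma, also at an unadjusted p under 0.05 and with the block. The range was from -0.64 ± 0.34 for Jak3 to 0.61 ± 0.36 for Jak2, both cytokine receptor kinases. Fgr and Blk, further members of the Src family, gave -0.31 ± 0.33 and -0.17 ± 0.55 (SE, log2). Fgr read 243.9 and 290.3 on the deprived and 340.4 and 351.2 on the non-deprived arrays. Like Src and 17.1% of tested probe sets, it thus had both deprived arrays below both non-deprived arrays. The groups of the tested Blk probe set overlapped. A second Blk probe set, too dim to test, was separate, at 50.3 and 73.7 against 115.5 and 122.9. Abl1, another kinase of the cytoskeleton, gave -0.31 ± 0.26, and Matk, a Csk-like kinase that also restrains the family, 0.11 ± 0.20. Ptk2b, which activates Src in neurons after calcium entry, read 2252 and 2332 on the deprived and 2060 and 1629 on the non-deprived arrays. The difference of Ptk2b was 0.31 ± 0.18 (SE, log2) with an adjusted p of 0.98 in limma. Ptk2 had no probe set naming it alone.

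Of 12 phosphatases and adaptors that act on the family, 8 were tested, 2 lower and 6 higher, with a median of 0.16, and 0 passed in limma, at an unadjusted p under 0.05 or with the block. Ptpra, a phosphatase that activates Src by clearing its tail, gave 0.04 ± 0.25. Ptpn5, the striatal-enriched phosphatase that switches Fyn off, gave -0.08 ± 0.18 (SE, log2). The extremes were Cbl, an adaptor that sends active kinases to degradation, at -0.23 ± 0.45, and Ptpn12 at 0.43 ± 0.62. Ptpn11, a phosphatase of growth factor signalling, was too dim to test. Its signals were 61.2 and 63.9 on the deprived and 10.9 and 9.3 on the non-deprived arrays, separate between the sides but all under the limit of 142.9.

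Of 22 substrates and adaptors, 17 were tested, 7 lower and 10 higher, with a median of 0.02. In limma 0 passed, and 0 with the block, and 1 reached an unadjusted p under 0.05. This was Grb2, an adaptor that links tyrosine kinases to Ras, named after its value was seen. It read 1233 and 1269 on the deprived and 1822 and 2327 on the non-deprived arrays, with no overlap, and gave -0.69 ± 0.18 (SE, log2; adjusted p = 0.38, or 0.080 with the block). The cytoskeletal substrates Pxn (paxillin) and Bcar1 (p130Cas) were the extremes, at -0.77 ± 0.46 and 0.65 ± 0.39. For each a single array stood off from the other 3, deprived array 1 at 95.8 for Pxn and non-deprived array 1 at 192.2 for Bcar1. Cttn, cortactin, gave -0.24 ± 0.23 and -0.24 ± 0.39 by its probe sets. Dab1, the adaptor of reelin signalling that Fyn and Src phosphorylate, gave 0.02 ± 0.23, and the RNA-binding substrate Khdrbs1 gave 0.01 ± 0.51.

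Of 20 receptors and adhesion molecules that signal through the family, 12 were tested, 5 lower and 7 higher, with a median of 0.03. In limma 0 passed, and 0 with the block, and Itgb1, the integrin beta 1 subunit, reached an unadjusted p under 0.05. Itgb1 gave 0.40 ± 0.18 (SE, log2; adjusted p = 0.91) and 0.15 ± 0.26 at its probe sets, and was the highest of the list. Epha4, an ephrin receptor and the lowest of the list, gave -0.47 ± 0.28 by its brighter probe set and 0.58 ± 0.54 by the dimmer one, which disagree in sign. Ncam1, a neural adhesion molecule that recruits Fyn, gave 0.29 ± 0.16 and -0.06 ± 0.27. Ntrk2, the receptor for brain-derived neurotrophic factor, was too dim to test, between 11.0 and 70.8, and Ephb2 had no probe set naming it alone.

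The NMDA receptor complex held 7 tested genes, 5 lower and 2 higher, with a median of -0.09. In limma 0 passed, and 0 with the block. At an unadjusted p under 0.05 there were 2, in opposite directions, beside 180 lower and 98 higher of all 5649 tested genes. Grin2b, the NMDA receptor subunit that Fyn phosphorylates, read 91.7 on deprived array 1 and 70.2 on deprived array 2, against 255.9 on non-deprived array 1 and 451.7 on non-deprived array 2. Both deprived values were below both non-deprived values, and, as with Src, the deprived mean was under the limit for testing. Its difference was -1.51 ± 0.49 (SE, log2; adjusted p = 0.55 without and 0.21 with the block). Dlg4, the postsynaptic scaffold PSD-95 that holds Src-family kinases near the receptor, read 3934 and 4056 on the deprived and 3060 and 2987 on the non-deprived arrays. The difference of Dlg4 was 0.39 ± 0.16, with an adjusted p of 0.84. Grin2a, the other subunit phosphorylated by the family, gave 0.62 ± 0.58 at signals from 58.6 to 229.4, with overlapping groups. Grin1 and Rack1 had no probe set naming them alone.

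**Figure D4:**
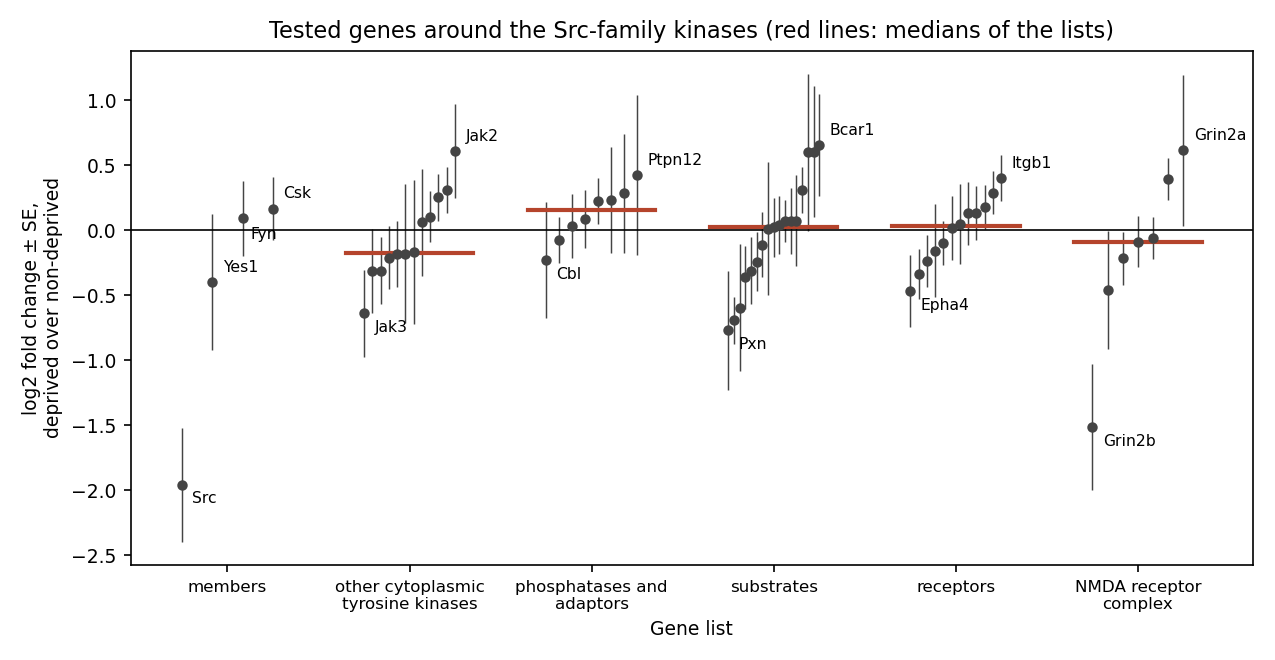
log2 fold change ± SE of deprived over non-deprived cortex for each tested gene of the members and of 5 pathway lists, with a red line at the median of each pathway list and names for the members and the extremes. Src at -1.96 and Grin2b at -1.51 lie lowest, and the medians of the lists lie between -0.17 and 0.16.

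Lyn is known from microglia and B cells and Lck from T cells, so markers of these cells were examined although both kinases lacked a probe set. Of 8 tested microglia markers, each by its brightest probe set, 4 were lower and 4 higher, with a median of 0.03, and 0 passed in limma, at an unadjusted p under 0.05 or with the block. The microglial receptor gene Csf1r gave 0.10 ± 0.19 by its brighter probe set and -0.83 ± 0.30 by the dimmer one (adjusted p = 0.69), and the complement gene C1qb gave 0.06 ± 0.23 at its brighter. Of 9 T cell markers 7 were too dim to test, Cd3e among them, and of the other 2 none passed in limma. Cd4, named after its value was seen, was the 1 at an unadjusted p under 0.05, at -0.90 ± 0.36 (SE, log2; adjusted p = 0.83). Cd3g read 381.4 and 84.2 on the deprived and 131.7 and 16.6 on the non-deprived arrays and had overlapping groups. Of 5 B cell markers with a probe set, 3 were tested, 2 lower and 1 higher, and Cd79b was too dim. Of 6 astrocyte markers 4 were lower and 2 higher, with a median of -0.03. The 1 at an unadjusted p under 0.05 was Slc1a2, a glutamate transporter named after its value was seen, at -0.997 ± 0.327 (adjusted p = 0.58), and Gfap, the astrocyte filament gene, gave 0.04 ± 0.20 by its brighter probe set. Of 4 endothelial markers 2 were lower and 2 higher, with a median of 0.05. By their brightest probe sets, all 4 tested markers of neighbouring striatum, thalamus and hippocampus were higher, with a median of 0.16. The second tested probe sets of Penk, Prkcd and Tcf7l2, named after their values were seen, gave -0.18 ± 0.32, -0.19 ± 0.26 and -0.006 ± 0.565 (SE, log2), so the probe sets of these 3 genes disagree in sign. Summed over all 5 of these markers with a probe set, the 1 too dim to test included, the signal was 3241 and 2421 on the deprived and 2365 and 2254 on the non-deprived arrays. Of the tested markers of these last 3 kinds and of B cells, 0 passed in limma with or without the block, Slc1a2 being the 1 at an unadjusted p under 0.05. Over all 5649 tested genes, 180 lower and 98 higher ones were under that unadjusted p. No marker was at 0 on any array, and the part of these differences in the Src result was not tested.

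**Figure D5:**
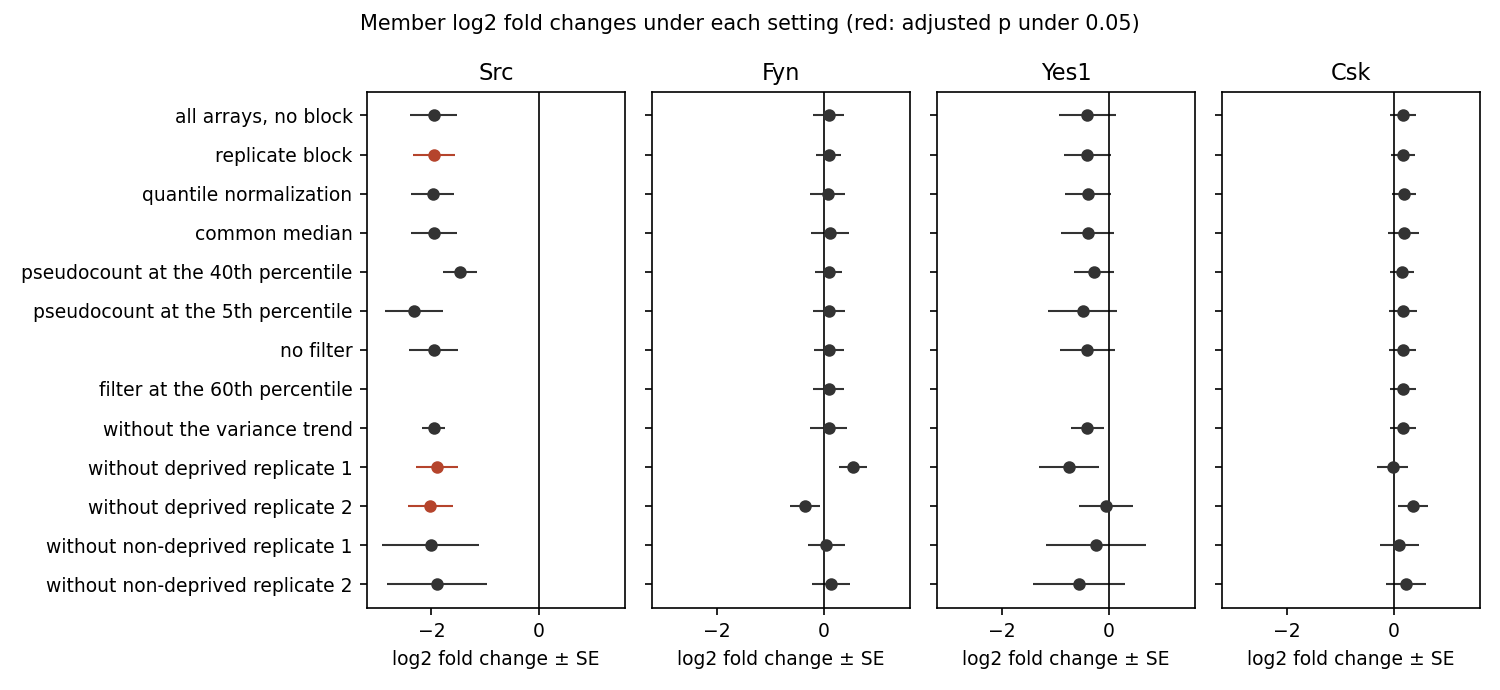
log2 fold change ± SE of the 4 tested member probe sets in the fit of all arrays without a block and under each other setting, in red where the adjusted p was under 0.05. Src stays between -2.33 and -1.46 in every fit that tested it, Fyn and Csk lie on both sides of 0 when a deprived array is left out, and no point is drawn for Src and Yes1 at the stricter filter, which removes them.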

How the data were processed

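Total RNA of 4 pooled samples was hybridised as biotin-labelled cRNA to single-colour Affymetrix arrays. Per the submitters' processing notes, the authors used MAS5 to make the deposited intensity of each of 12488 probe sets, which is linear and not log-transformed. Neither its version nor its target signal is given in the sources used here. Arrays were scaled to a common 2% trimmed mean, 60.6 (the 20th percentile of mean signals) was added and log2 taken. Leaving out 66 controls, and all others whose mean was under the 40th percentile (142.9), kept 7458 probe sets. limma 3.58.1 in R 4.3.3 (lmFit, eBayes with a variance trend) tested the difference between the sides in a two-sided way, and p-values were adjusted over the 7458 by Benjamini-Hochberg, with a threshold of 0.05. An exact permutation test of 2 arrays against 2 cannot give a p under 0.333. Arrays limit precision by their number.

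Replicate numbers were read as pairing the arrays from the submitters' wording. Over probe sets, the deviations from the group mean of arrays sharing a number correlated at r = 0.27. The blocked fit has 1 residual degree of freedom and 13.3 with its prior, against 2 and 11.6 without the block. The fit was checked on simulated data, in 20 runs with 200 changed probe sets among 7458 in each. Of the probe sets called, 6.74% were false. Of changes of -0.5, -1 and -2 (log2), 1.34%, 21.3% and 65.3% were called. A gene that did not pass may therefore still differ between the sides.

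Symbols came from the platform's annotation table, updated through Entrez identifiers in RefSeq (10839 of 10855 matched). Members and gene lists were chosen with earlier results of these data known. Named genes were all member probe sets, a set of pathway and marker genes taken whatever their values, the extremes of each pathway list and the 5 patterns nearest to Src. Nefl, Stmn2, Mobp, Grb2, Cd4, Slc1a2, Penk, Prkcd and Tcf7l2 fall outside this rule and were named after their values were seen. Other normalizations, pseudocounts, filters, variance models and left-out arrays were tried. Probe positions and proteins were not used here.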

Additional observations from a re-analysis of the deposited data

How the results depend on the processing

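The Src difference stayed below 0 in all 11 other fits that tested it, from -2.33 with the pseudocount at the 5th percentile to -1.46 with it at the 40th. The number of members past the threshold, 0 with all arrays and no block, became 1 (Src) with the replicate block and ran from 0 to 1 with an array left out. Over all probe sets the count of 8 became 40 with the replicate block, 3 with a common median as the scale, 1 with quantile normalization and 0 without the variance trend, and ran from 5 to 90 with an array left out. Without the variance trend the Src SE was 0.21 and its adjusted p 0.62. The block changed no other member's call. With an array left out, Csk ran from -0.025 (without deprived array 1) to 0.36, and Fyn from -0.36 (without deprived array 2) to 0.54. A fit with 1 array in a group takes its spread from the other group. The cause of these changes was not tested. The filter at the 60th percentile removes Src and Yes1, so it gives no value for them. Of the 46 other member values, 41 kept their direction and their side of the threshold. Src was the 1 member past a 1.5-fold difference in all 4 pairs, and also at 1.2-fold and 2-fold. Of all 7458 tested probe sets, 118 were lower and 24 higher at 1.5-fold, 416 and 223 at 1.2-fold, and 27 and 3 at 2-fold. The family was selected on this contrast, so nothing is read from these counts. Signals near the added 60.6 limit what Src, Yes1 and the dim Csk probe set can show.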
